A study of Homo sapiens with 6 samples.

Results

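The genes described here are 10 genes of the integrated stress response, *ATF4* and 9 genes that the ATF4 protein is known to activate, in NB4 leukemia cells treated with tanshinone I (Tan I). They were chosen by symbol (*ATF4*, *DDIT3*, *ATF3*, *TRIB3*, *ASNS*, *CHAC1*, *SESN2*, *PSAT1*, *PHGDH* and *DDIT4*), and all 10 were found among the 18625 genes of the expression table. NB4 is a human acute promyelocytic leukemia line that carries the PML-RARA fusion, and Tan I is a diterpenoid of *Salvia miltiorrhiza* that was studied for its effect on blood formation and on the histone methyltransferase EZH2. RNA-seq was performed on cells kept for 3 days with DMSO (3 libraries) or with Tan I at 10 μM (3 libraries). All 6 libraries came from this 1 cell line, and nothing in the labels says that the replicates were separate cultures, so the p-values measure the spread between these libraries, which may be technical.

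In the integrated stress response, kinases that sense endoplasmic reticulum stress, amino acid shortage, heme shortage or double-stranded RNA phosphorylate the translation factor eIF2α. Most protein synthesis then slows while the *ATF4* mRNA is translated more, and ATF4 switches on genes for amino acid synthesis and transport, for tRNA charging and for feedback on the response itself. RNA-seq reads the mRNA of *ATF4* and of its targets and not the translation step, so the levels below are mRNA levels only.

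In these libraries, no difference between Tan I and DMSO larger than the spread between replicates was found for any of the 10 mRNAs. Their log2 fold changes, Tan I relative to DMSO, ran from -0.47 for *ASNS* to 0.30 for *DDIT3*, with 6 above 0 and 4 below, and their median was 0.09 against -0.00 over all genes tested. Of 18 genes from the other arms of the unfolded protein response, 7 were called higher in Tan I without adjustment and 0 with it. That is 38.9%, against 1.32% of all genes tested, in a list chosen with earlier results of these data known. Among the 7 was the chaperone gene *HSPA5*, with a log2 fold change of 0.60. Without Tan I replicate 2 the count was 2, and calls of higher over all genes fell from 223 to 77.

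ATF4 binds DNA together with C/EBP proteins at a composite element whose core is read here as TGATGNAA or its reverse complement TTNCATCA. The 250 bases before each RefSeq start were searched on both strands (GRCh38.p14, 16 starts for the 10 genes, all of which matched the promoter table by symbol). The letters were present in front of *ATF3*, *ASNS* and *CHAC1*, that is 3 of the 10 genes, and in front of 3.89% of all symbols in the RefSeq table (3.14% of 35116 promoters). The genes were chosen as known targets of ATF4, so a share above that of all symbols gives no separate support. The 3 stretches are shown in full because *ASNS* and *ATF3* are referred to again beside their values. Each is 30 bases long, written 5′ to 3′ on the strand of its gene, with the match in capitals.
ATF3: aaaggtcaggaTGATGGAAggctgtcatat
ASNS: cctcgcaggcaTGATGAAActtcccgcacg
CHAC1: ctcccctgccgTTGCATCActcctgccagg

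The *ATF3* stretch lies at chr1:212565205-212565234 on the + strand, outside the exons of *ATF3* in GENCODE release 44. Its match begins 191 bases before 1 of the 2 RefSeq starts of *ATF3*. The *ASNS* stretch lies at chr7:97872458-97872487 on the − strand, with its match 68 bases before 1 of 2 RefSeq starts. The other starts of *ATF3* and *ASNS* had no match, and which start NB4 cells use was not tested. The *CHAC1* stretch lies at chr15:40953251-40953280 on the + strand, 209 bases before its 1 RefSeq start, with the match on the opposite strand. The *ASNS* and *CHAC1* stretches each overlap an annotated exon of the same gene in GENCODE. A match describes letters only, and a window without one says nothing of ATF4 binding elsewhere.

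The libraries held 21502760 to 31679138 reads on the listed genes. Values are read counts divided by 1 size factor per library, called normalized counts below. The size factors ran from 1.04 to 1.28 in DMSO and from 0.75 to 1.02 in Tan I. The first principal component (PC1) of all genes tested held 70.8% of the variance between libraries, and its scores were highest in DMSO replicate 2 (41.1) and Tan I replicate 3 (71.6), 1 library of each group. The promyelocyte markers summed to between 73497 and 79457 normalized counts in DMSO and between 44154 and 52566 in Tan I over the 7 of 8 markers found, and *MPO*, the myeloperoxidase of these cells, was called lower with a log2 fold change of -0.78. *MPO* made up most of these sums: without it the other 6 markers summed to between 13108 and 15350 in DMSO and between 10875 and 13116 in Tan I, which overlapped narrowly. Of the 7 markers 6 had a negative log2 fold change, with a median of -0.25 over the 7. Called lower were 2 of the 7 (28.6%, against 1.10% of all genes tested), *MPO* and *CTSG*. The part of these marker differences in the results below was not tested. The 5 of 10 markers of other cell types that were found summed to between 381 and 428 in DMSO and between 377 and 437 in Tan I. In bulk RNA, fewer cells that express a gene and less of its RNA per cell cannot be told apart.

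Expressed per kilobase of annotated exon, so that genes can be compared, *ATF4* stood at 7151 normalized counts as a mean of the 6 libraries, from 5924 to 9039. *PSAT1* came next with a mean of 1948 per kilobase, and its range did not reach those of the genes on either side. *TRIB3* (944), *PHGDH* (913) and *DDIT4* (636) followed, and neighbours among these had overlapping ranges over the libraries. *DDIT3* (119), *ASNS* (107), *ATF3* (95.2) and *SESN2* (92.2) formed a lower group of levels per kilobase in which neighbours overlapped as well. *CHAC1* was lowest, with a mean of 7.27 per kilobase and a highest library of 8.92.

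*ATF4* (ENSG00000128272, chr22:39519695-39522683, + strand) encodes the transcription factor of the response. Its normalized counts were 15479, 19041 and 17946 in DMSO replicates 1, 2 and 3, and 15493, 20543 and 23619 in Tan I replicates 1, 2 and 3. Tan I replicates 2 and 3 were above every DMSO library, while Tan I replicate 1 lay next to the lowest one, DMSO replicate 1. The means were 17489 ± 1825 in DMSO and 19885 ± 4103 in Tan I (± SD over 3 libraries each). The log2 fold change was 0.17 (standard error, SE, of 0.19, 95% confidence interval -0.27 to 0.60), and the groups overlapped. It was 0.03 without Tan I replicate 3 and 0.34 without Tan I replicate 1.

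*DDIT3* (ENSG00000175197, chr12:57516588-57521737, − strand) encodes CHOP, a factor that ATF4 induces and that promotes cell death under long stress. Its normalized counts were 91.4, 194 and 126 in DMSO and 105, 152 and 265 in Tan I, in replicate order. Tan I replicate 3 was highest and DMSO replicate 2 second, so the spread within each group was wider than the step between the groups. The means were 137 ± 52.0 and 174 ± 82.7 (± SD over 3 libraries each), and the log2 fold change was 0.30 (SE 0.39, 95% confidence interval -0.62 to 1.23). These levels rest on 98 to 201 reads per library. Exons of *DDIT3* overlap those of *MARS1* and *MBD6* on the other strand, and since no strand setting is given, reads of the overlap cannot be assigned with certainty. *MARS1* had 8567 to 9406 normalized counts, far more than *DDIT3*, and the part of such reads in the *DDIT3* values was not tested.

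*ATF3* (ENSG00000162772, chr1:212565334-212620777, + strand) encodes a stress factor that acts in concert with ATF4 and CHOP. It had 440, 253 and 494 normalized counts in DMSO and 361, 385 and 351 in Tan I. All 3 Tan I libraries lay between the DMSO libraries, of which replicate 2 was the lowest of all. The log2 fold change was -0.06 (SE 0.25, 95% confidence interval -0.64 to 0.52). Without DMSO replicate 2 it was -0.35, past the unadjusted call threshold given below (adjusted p = 0.734 from limma), and without DMSO replicate 3 it was 0.13.

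*TRIB3* (ENSG00000101255, chr20:362835-397559, + strand) encodes a pseudokinase that is induced by ATF4 and CHOP and dampens their activity. Its normalized counts were 2075, 4224 and 2442 in DMSO and 2618, 3203 and 4087 in Tan I. The highest library was DMSO replicate 2, followed by Tan I replicate 3. The means were 2914 ± 1150 and 3303 ± 740 (± SD over 3 libraries each), with a log2 fold change of 0.23 (SE 0.28, 95% confidence interval -0.43 to 0.89). This value turned on DMSO replicate 2 as well. Without it, all Tan I libraries were above the remaining DMSO libraries and the log2 fold change was 0.53, past the unadjusted threshold (adjusted p = 0.734 from limma), while without DMSO replicate 1 it was 0.02.

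**Figure D1:**
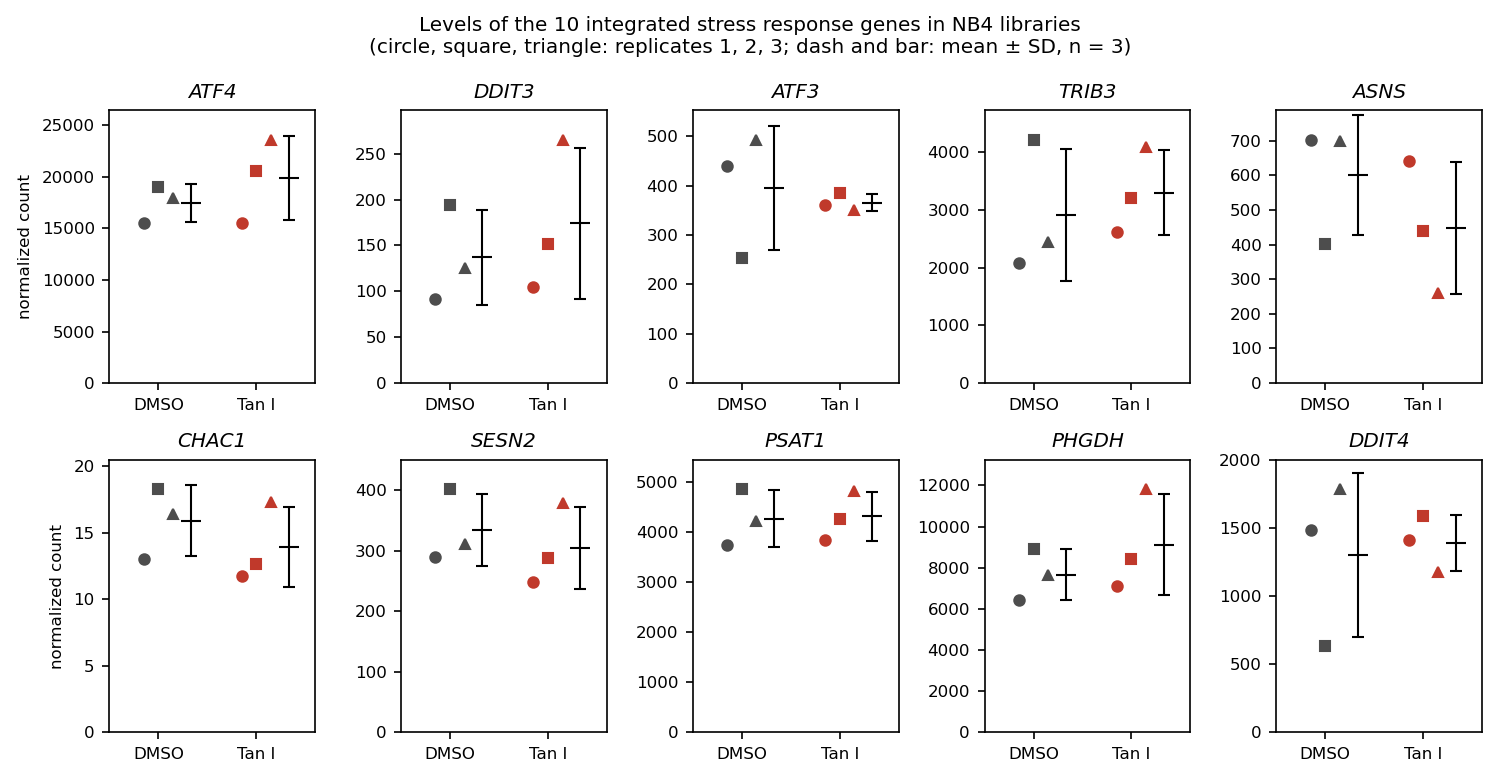
Normalized counts (vertical axis, linear from 0, a separate scale for each gene) of the 10 integrated stress response genes in the 3 DMSO libraries (grey) and the 3 Tan I libraries (red), with circles, squares and triangles for replicates 1, 2 and 3 and the mean ± SD beside them. In every panel the points of the groups overlap; for *DDIT4* the DMSO points alone run from 632 to 1787.

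*ASNS* (ENSG00000070669, chr7:97851677-97872542, − strand) encodes asparagine synthetase, a classical target of the amino acid response, and carries the ATF4 letters shown above. It had 703, 401 and 699 normalized counts in DMSO and 641, 439 and 261 in Tan I. The lowest library was Tan I replicate 3 and the next DMSO replicate 2, the same libraries that were highest for *TRIB3* and *DDIT3*. The means were 601 ± 173 and 447 ± 190 (± SD over 3 libraries each). The log2 fold change of -0.47 was the furthest from 0 among the 10 genes (SE 0.36, 95% confidence interval -1.30 to 0.36). Without Tan I replicate 1 it was -0.78 and past the unadjusted call threshold (adjusted p = 0.532 from limma), and without Tan I replicate 3 it was -0.13.

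*PHGDH* (ENSG00000092621, chr1:119648411-119744218, + strand) and *PSAT1* (ENSG00000135069, chr9:78297125-78330093, + strand) encode the first and the next enzyme of serine synthesis from glycolysis. *PHGDH* had 6416, 8909 and 7656 normalized counts in DMSO and 7097, 8433 and 11832 in Tan I, where replicate 3 stood above the other 5 libraries. Its log2 fold change was 0.23 (SE 0.21, 95% confidence interval -0.27 to 0.73), with 0.03 without Tan I replicate 3 and 0.40 without Tan I replicate 1. *PSAT1* was the steadiest of the 10 genes, with 3743, 4870 and 4219 normalized counts in DMSO and 3847, 4276 and 4834 in Tan I. The highest library of *PSAT1* held 1.30 times the lowest, and for *PHGDH* this ratio was 1.84. With a log2 fold change of 0.02, a standard error of 0.14 and a 95% confidence interval of -0.32 to 0.35, *PSAT1* also had the narrowest interval.

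*CHAC1* (ENSG00000128965, chr15:40952962-40956512, + strand) encodes an enzyme that degrades glutathione and is induced through ATF4. It had the fewest reads of the 10 genes, with 14, 19 and 21 reads in DMSO and 12, 12 and 13 in Tan I, or 13.1, 18.3 and 16.4 and 11.7, 12.6 and 17.3 normalized counts. At this depth counting error alone is wide: 14 reads have an exact Poisson 95% interval of 7.65 to 23.5, and 13 reads one of 6.92 to 22.2, which cover counting error only. The log2 fold change was -0.19 (SE 0.35, 95% confidence interval -1.0 to 0.62), and its SE was below those of *DDIT3*, *DDIT4* and *ASNS*.

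*SESN2* (ENSG00000130766, chr1:28259518-28282491, + strand) and *DDIT4* (ENSG00000168209, chr10:72273919-72276036, + strand) encode stress-induced inhibitors of the growth kinase complex mTORC1. *SESN2*, which senses leucine, had 289, 402 and 310 normalized counts in DMSO and 247, 288 and 379 in Tan I, highest in DMSO replicate 2 and next in Tan I replicate 3. Its log2 fold change was -0.14 (SE 0.21, 95% confidence interval -0.62 to 0.35). With the PC1 score as a covariate it was -0.26 and past the unadjusted call threshold (adjusted p = 0.222 from limma). In that fit 779 of all genes were called lower, against 185 without the covariate. *DDIT4*, also known as REDD1, had 1487, 632 and 1787 normalized counts in DMSO and 1410, 1587 and 1175 in Tan I. DMSO replicate 2 lay far below the other 5 libraries, and the log2 fold change was 0.22 (SE 0.37, 95% confidence interval -0.64 to 1.07). Without DMSO replicate 2 the value for *DDIT4* was -0.24, and without DMSO replicate 3 it was 0.51.

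A gene was called where the unadjusted p-value from limma was at most 0.05 and the log2 fold change at least 0.25 in size. By this rule 0 of the 10 genes were called higher, against 1.32% of all genes tested, and 0 of 10 were called lower, against 1.10%. The smallest unadjusted p from limma was 0.225, for *ASNS*, and all 10 genes had an adjusted p of 0.999. With adjustment over all 16887 genes limma called 0% of them, and 410 genes had an unadjusted p of at most 0.05, none of the 10 among them. On reads recovered from the normalized counts, edgeR called 0 and DESeq2 16 of all genes with adjustment, and neither called any of the 10. For none of the 10 genes did all Tan I libraries lie above or below all DMSO libraries, while 3.92% of all genes lay wholly above and 3.97% wholly below. Exact two-sided permutation tests of the single genes gave p-values from 0.4 to 1, where the smallest that 3 libraries against 3 allow is 0.1.

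The intervals show which sizes of change these libraries leave within reach. For *PSAT1* the 95% confidence interval of the ratio of Tan I to DMSO ran from 0.800 to 1.28, and for *ATF4* from 0.831 to 1.52. For *DDIT3* it ran from 0.652 to 2.34 and for *DDIT4* from 0.642 to 2.10, so rises of over 2-fold in these genes lay within the interval. For *ASNS* it ran from 0.405 to 1.28, which holds a fall of over 2-fold, and for *CHAC1* from 0.500 to 1.54. The absence of a call for them does not show that their levels were alike.

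**Figure D2:**
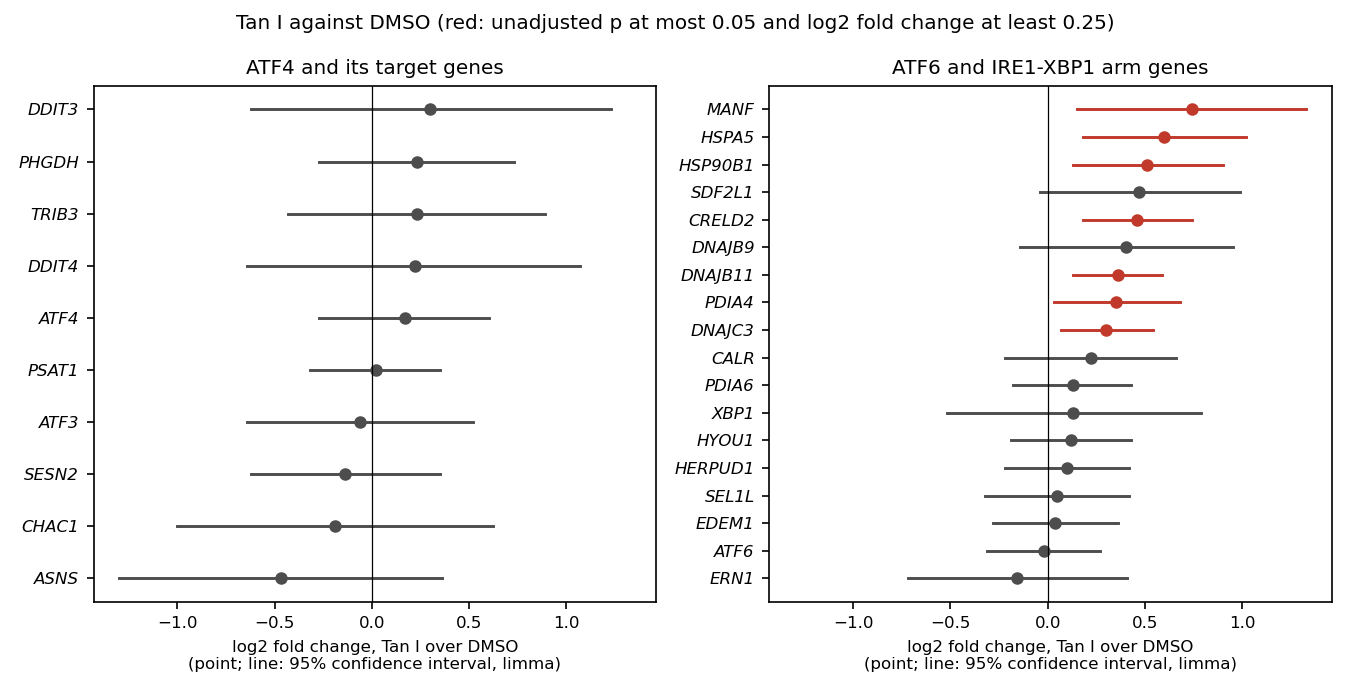
Log2 ratio of Tan I to DMSO from limma (horizontal axis; point and 95% confidence interval, 3 libraries a group) for the 10 integrated stress response genes (left) and for 18 genes of the other arms of the unfolded protein response (right), with red for genes called without adjustment. All 10 intervals on the left include 0; on the right 7 genes are red, with values from 0.30 for *DNAJC3* to 0.74 for *MANF*.

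The spread within the groups was shared between genes. DMSO replicate 2 and Tan I replicate 3, the libraries with the highest PC1 scores, were the top pair for 6 of the 10 genes (*DDIT3*, *TRIB3*, *CHAC1*, *SESN2*, *PSAT1* and *PHGDH*), which is 60% against 26.5% of all genes tested. They were the bottom pair for 3 genes (*ASNS*, *ATF3* and *DDIT4*), or 30% against 24.8% of all genes. *ATF4* was in neither set, being highest in Tan I replicates 3 and 2. This order was looked for after the values were seen and is given as a description, since the PC1 scores come from the same libraries. The well-known targets *TRIB3* and *ASNS* varied in opposite directions over the same 6 libraries. With the PC1 score as a covariate, the log2 fold changes were 0.05 for *TRIB3* and *DDIT3*, 0.07 for *ATF4*, 0.38 for *DDIT4* and -0.24 for *ASNS*. For *ASNS* the unadjusted p from limma was 0.0182 in that fit (adjusted p = 0.222), and only its size missed the call threshold. The normalized counts of DMSO replicate 2 and Tan I replicate 3 summed to 26277954 and 28675740, against 23643626 to 25557677 in the other libraries. The labels give no batch that separates these 2 libraries from the others, and the part of handling, culture state, depth or normalization in this order was not tested.

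**Figure D3:**
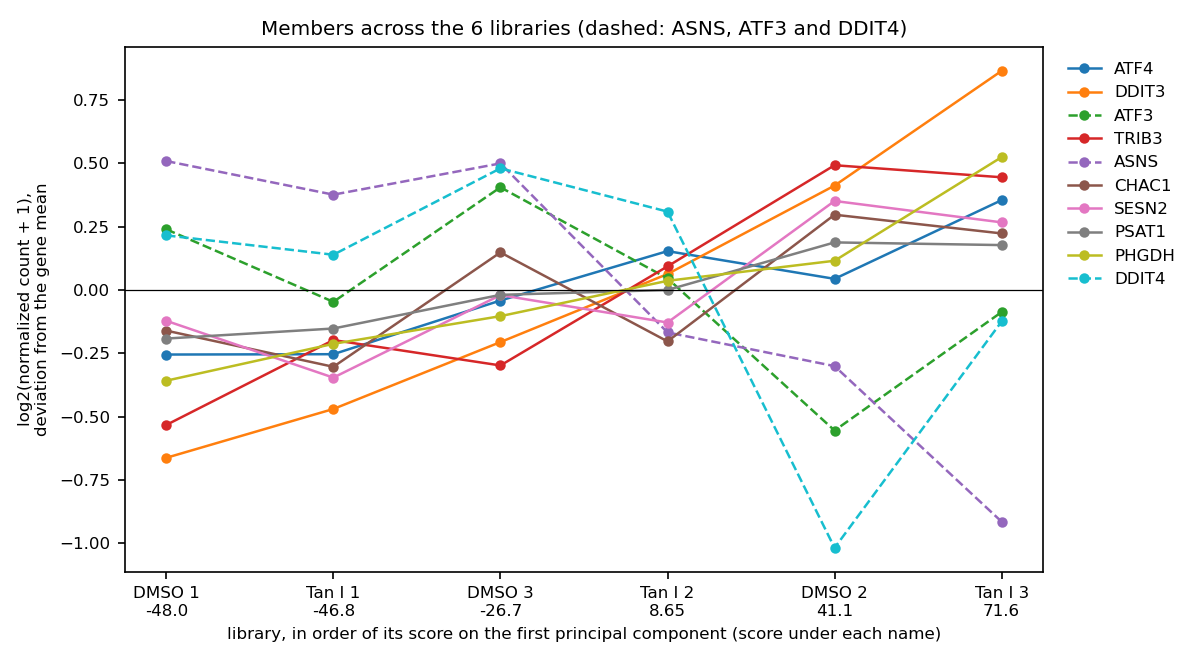
Deviation of log2(normalized count + 1) from the mean of each gene over the 6 libraries (vertical axis) for the 10 integrated stress response genes, with the libraries placed in order of their PC1 score (horizontal axis, scores from -48.0 to 71.6). The solid lines of 7 genes lie higher in Tan I replicate 3 than in DMSO replicate 1, and the dashed lines of *ASNS*, *ATF3* and *DDIT4* lie lower.

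Genes that act above ATF4 gave no call either. Among 14 genes for the eIF2α kinases, their regulators, eIF2B and the eIF2α phosphatase, 0 were called, with a median log2 fold change of 0.08. The kinase gene *EIF2AK3* (PERK), named after its values were seen, had 403, 327 and 414 normalized counts in DMSO and 471, 449 and 433 in Tan I. All 3 Tan I libraries were above all DMSO libraries, as for 3.92% of all genes tested. The log2 fold change of *EIF2AK3* was 0.25 (SE 0.14). Its unadjusted p of 0.118 from limma missed the call threshold (adjusted p = 0.999). *PPP1R15A*, which encodes the GADD34 subunit that reverses eIF2α phosphorylation, had 8524, 2638 and 11142 normalized counts in DMSO and 7674, 8714 and 7545 in Tan I. As in *DDIT4* and *ATF3*, DMSO replicate 2 was the lowest library, and the log2 fold change of 0.34 had an SE of 0.48. *GCN1*, the partner of the amino acid sensor GCN2, had a log2 fold change of 0.02.

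Among further partners and targets of ATF4, 1 gene was called, in the last of the lists that follow. With 1.32% of all genes tested called higher and 1.10% lower, counts of 0 in these short lists say little. Of 5 partner genes tested 0 were called, and *ATF5* and *CEBPG*, the most abundant, had log2 fold changes of 0.19 and 0.08. Of 8 genes of amino acid synthesis and one-carbon metabolism 0 were called, with log2 fold changes of 0.09 for both mitochondrial folate enzymes *SHMT2* and *MTHFD2*. Amino acid transporters (0 of 9 called, median 0.01) and tRNA charging genes (0 of 13, median 0.04) gave no calls, with log2 fold changes from -0.29 to 0.12 and from -0.04 to 0.24. The most abundant of them had 0.01 for the amino acid carrier gene *SLC38A2*, 0.12 for *SLC3A2*, 0.04 for the alanyl-tRNA synthetase gene *AARS1* and 0.02 for the methionyl one, *MARS1*. DMSO replicate 2 and Tan I replicate 3, the top pair for 26.5% of all genes tested, differed in this between the lists. They were the top pair for 8 of the 13 tRNA charging genes (61.5%) and for 5 of the 8 synthesis genes (62.5%). The same held for 3 of the 5 partner genes (60%), but for only 2 of the 9 transporters (22.2%). In the lists described below the share ran from 8.33% for p53 targets to 44.4% for hypoxia targets.

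Among 8 other stress targets of ATF4, 0 were called higher, against 1.32% of all genes tested, and 1 was called lower (12.5%, against 1.10%). It was *VLDLR*, the very low density lipoprotein receptor gene, with 1443, 1682 and 1471 normalized counts in DMSO and 1249, 1206 and 1350 in Tan I. Each Tan I library was below each DMSO library, as for 2 of the 8 genes and 3.97% of all genes tested. The log2 fold change of *VLDLR* was -0.27 (SE 0.12, adjusted p = 0.999 from limma). Without any 1 of the DMSO libraries, or without Tan I replicate 2, this call was lost. Targets of p53 and of hypoxia, which share *SESN2* and *DDIT4* as known target genes, gave 0 calls of 12 and of 9. Beside the shares over all genes these counts of 0 say little, and each list had a median log2 fold change of 0.01. The most abundant of these, the p53 targets *TNFRSF10B* and *BBC3* and the hypoxia targets *P4HA1* and *BNIP3*, had log2 fold changes of 0.03, 0.24, 0.00 and 0.01.

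The other arms of the unfolded protein response, run by ATF6 and by IRE1 with XBP1, raise chaperones of the endoplasmic reticulum. Here 7 of 18 such genes were called higher, 38.9% against the 1.32% of all genes, 0 were called lower, and 16 of 18 had a positive log2 fold change with a median of 0.26. The adjusted p-values from limma were 0.999 for all 7. *HSPA5*, the gene of the main chaperone BiP, had 42433, 38105 and 47438 normalized counts in DMSO and 54446, 67643 and 72691 in Tan I. The lowest Tan I library was thus above the highest DMSO library, and the log2 fold change was 0.60 (SE 0.18, 95% confidence interval 0.18 to 1.02).

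*HSP90B1*, which encodes the chaperone GRP94, had means of 39560 ± 1582 in DMSO and 56863 ± 8287 in Tan I (± SD over 3 libraries each) and a log2 fold change of 0.51. *CRELD2*, the gene of a secreted protein of the endoplasmic reticulum, had 2292, 2317 and 2441 normalized counts in DMSO and 2841, 3399 and 3483 in Tan I, with a log2 fold change of 0.46 (SE 0.12). *DNAJB11*, a co-chaperone gene of BiP, had a log2 fold change of 0.36 (SE 0.10). For all 4 of these genes the groups did not overlap. They were named for the smallest p from limma among the 7, so this gives no separate support. The remaining 3 called genes, *MANF*, *PDIA4* and *DNAJC3*, are named after their values were seen, with log2 fold changes of 0.74, 0.35 and 0.30. Of the 7 called genes the groups overlapped for *MANF* alone. Groups without overlap and with Tan I higher were found for 6 of the 18 genes, against 3.92% of all genes tested.

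The regulators of these arms, named like *HERPUD1* after their values were seen, were not called, with log2 fold changes of 0.13 for *XBP1*, -0.02 for *ATF6* and -0.16 for *ERN1*, the gene of IRE1. *HERPUD1*, an endoplasmic reticulum degradation gene that carries the ATF4 letters in its promoter window, had a log2 fold change of 0.10. The call of 7 genes moved with single libraries. Without Tan I replicate 2, 2 genes were called (*CRELD2* and *DNAJB11*), and without DMSO replicate 3, 4 were called. Calls of higher over all genes fell as well, from 223 to 77 and 119 in these refits. With the PC1 score as a covariate 9 were called, and 7 genes had an adjusted p of at most 0.05 from limma. In that fit 717 of all genes were called higher and 195 passed with adjustment, against 223 and 0 without the covariate. The PC1 score came from the same values that were then tested, so that fit gives no separate support. The comparison of these chaperone genes with the 10 integrated stress response genes was not tested as a difference.

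**Figure D4:**
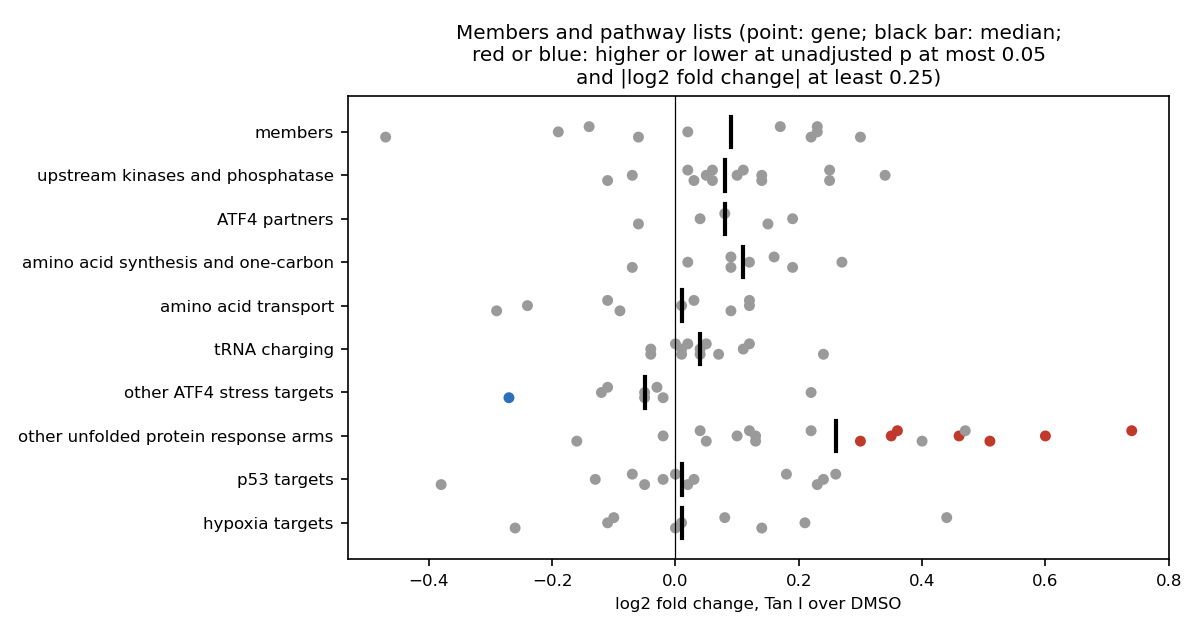
Log2 ratio of Tan I to DMSO (horizontal axis) of each gene tested in the 10 integrated stress response genes (top row, members) and in 9 lists of related genes, with a black bar at each median and colour for genes called without adjustment (red higher, blue lower). The medians run from -0.05 for other ATF4 stress targets to 0.26 for the other arms of the unfolded protein response, the row that holds all 7 red points.

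ATF6 acts at an element that spells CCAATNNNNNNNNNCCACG or its reverse complement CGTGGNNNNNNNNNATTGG. This search was added after the values were seen. In the same windows of 250 bases the letters were found for 0 of the 10 integrated stress response genes and for 6 of the 18 chaperone and regulator genes, 3 of them among the 7 called, against 0.0916% of all symbols. The 18 genes were listed as genes of these arms, so a share above that of all symbols gives no separate support. The 3 among the called genes are printed, 5′ to 3′ on the strand of the gene with the match in capitals, because they stand in front of the genes just described.
HSPA5: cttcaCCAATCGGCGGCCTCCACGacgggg
HSP90B1: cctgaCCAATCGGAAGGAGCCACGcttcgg
CRELD2: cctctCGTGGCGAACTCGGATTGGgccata

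They lie at chr9:125241385-125241414 on the − strand, at chr12:103930211-103930240 on the + strand and at chr22:49918549-49918578 on the + strand (GRCh38.p14), and *HSP90B1* holds another match nearer its start. The letters were also found for *XBP1*, *CALR* and *PDIA6*, likewise named after their values were seen, which were not called and had log2 fold changes of 0.13, 0.22 and 0.13.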

How the data were processed

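NB4 cells were treated with DMSO or Tan I (3 libraries each), and groups were taken from the sample titles. According to the study's methods and the submitters' processing notes, the authors used STAR for alignment of the paired-end reads (GRCh38), dropped multi-mapping reads and then obtained gene counts from featureCounts; DESeq2 is also named, and versions are not given in the sources used here. The authors deposited normalized counts, a signal of read counts divided by 1 size factor per library. The deposited table also holds the authors' comparison (log2 fold change with its standard error, Wald score, p-value and adjusted p-value), which was not used, and 0 other per-sample columns. All values (100%) were whole multiples of 1 read within a tolerance of 0.01, so reads were recovered from them.

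limma 3.58.1 in R 4.3.3 (lmFit, eBayes with trend) was run on log2(normalized count + 1) for 16887 genes (mean normalized count of 10 or more, 1738 left out), with Benjamini-Hochberg adjustment over all of them. This scale understates changes of low genes. Call thresholds followed the study's methods. Alternatives were pseudocounts of 0.1 and 10, no filter, a mean of at least 50, quantile normalization, equal library totals, no trend, edgeR 4.0.16 and DESeq2 1.42.0 on recovered reads (1965 genes had no adjusted p in DESeq2), the replicate number as a block, the PC1 score as a covariate and each library left out. The scripts were tested on simulated data.

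The 10 genes and all lists were chosen with earlier results of these data known. From each list up to 4 called genes with the smallest p are named, otherwise the 2 with the highest mean; others are marked. Of 104 listed pathway genes, 98 were found and 96 tested. Exon lengths and positions came from GENCODE release 44, which held 99.6% of the identifiers, and promoters from RefSeq (GRCh38.p14).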

Additional observations from a re-analysis of the deposited data

How the results depend on the processing

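Of the 10 genes, 0 were called with adjustment in any of the alternatives. The log2 fold change of *PSAT1* was -0.05 with quantile normalization, -0.04 when all libraries were set to equal totals and -0.06 with the PC1 score as a covariate, where that of *ATF3* was 0.03. Leaving out 1 library at a time gave ranges of 0.03 to 0.34 for *ATF4*, 0.03 to 0.40 for *PHGDH*, -0.05 to 0.62 for *DDIT3*, -0.35 to 0.13 for *ATF3*, -0.08 to 0.11 for *PSAT1*, -0.31 to 0.00 for *SESN2* and -0.24 to 0.51 for *DDIT4*, and their median stayed between -0.04 and 0.15. In the same refits 0 to 1 of the 10 genes were called higher and 0 to 1 lower, 2 to 11 genes of the pathway lists higher (7 with all libraries) and 0 to 3 lower (1 with all libraries), and 2 to 8 of the unfolded protein response genes higher. Over all genes, 223 were called higher and 185 lower with all libraries (188 and 250 when all libraries were set to equal totals), and 77 (without Tan I replicate 2) to 729 (without Tan I replicate 1) and 81 (without DMSO replicate 1) to 767 (without Tan I replicate 1) with 1 left out. With the PC1 score as a covariate, 1 of the 10 genes was called lower, as were 4 pathway genes and 779 of all genes, while 717 were higher and 195 passed with adjustment. Without a filter and without the trend 0 pathway genes were called lower, the latter with 285 of all genes lower, and DESeq2 called 16 with adjustment. The cause of these shifts was not tested. The deviations of same-numbered libraries had correlations of 0.75, -0.09 and -0.45 for replicates 1, 2 and 3. These values cannot settle whether same-numbered libraries were handled together, which the labels do not say. With the replicate block 0 of the 10 genes, 7 pathway genes higher and 1 lower, and 193 and 155 of all genes were called.
*CHAC1* had the fewest reads, 12 to 21 per library.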
